A study of Rattus norvegicus with 12 samples.

Results

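The collagen chains are the polypeptides that wind in threes into collagen molecules, the main structural proteins of the extracellular matrix. The chains described here were the 39 gene names on the array made of "Col", a type number, "a" and a chain number, and 54 probes on 129 spots carried those names. The whole array held 36181 gene or transcript names, 45598 probes and 58717 spots that were not controls. Where a name had several probes, the probe with the highest mean over the 12 arrays stood for the chain.

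N27, an immortalised rat mesencephalic cell line used as a model of dopamine neurons, was profiled on Agilent 1-colour expression arrays. The KO group held 7 arrays (sample numbers 1 to 7) of N27 cells from which the voltage-dependent anion channel was removed by CRISPR, labelled as VDAC1 KO. The WT group held 5 arrays (sample numbers 3, 5, 6, 7 and 8) of N27 cells with the channel. All 12 cultures were taken at 80% confluence, and no drug treatment is named in the labels. Whether the KO cultures came from 1 clone, where the edit lies and whether cultures were independent is unknown from the labels. The p-values therefore measure only how much these cultures vary.

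Fibrillar collagens assemble into the banded fibres of connective tissue, and network collagens form the sheets of basement membranes and vessel walls. Fibril-associated collagens with interrupted triple helices (FACIT) sit on the surface of fibres, type VI collagen forms beaded filaments, and multiplexins such as type XVIII lie in basement membranes. The chains are folded and hydroxylated in the endoplasmic reticulum, and most types are then trimmed and cross-linked outside the cell.

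Levels are given as log2 signal relative to the 75th percentile of the same array, so 0 marks that percentile, and each difference is KO minus WT on that log2 scale. The number of arrays limits the precision. A feature was tested where it was well above background on 5 or more arrays, and called where its limma p, adjusted over all 14739 tested features, was below 0.05. The 75th percentile of the signal ranged 5.76-fold between arrays, 42.3% to 53.8% of spots were well above background, and none was saturated. Vdac1 had values of 2.54, 2.45, 2.68 and 2.26 in KO 1 to 4, of 1.21, 1.53 and 1.2 in KO 5 to 7, and of 3.07 to 3.61 in the WT arrays. Every KO array was lower than every WT array (log2 difference −1.23 ± 0.28 SE, adjusted p = 0.0560). The Vdac1 probe may lie outside the edited stretch, in which case it says nothing of the edit. Several chains took different levels in sample numbers 1 to 4 and 5 to 8, and only WT 3 stood for the first set among WT arrays. The labels do not say what the numbers stand for, and the comparison is therefore also given with this number set as a block and for numbers 5 to 8 alone. That set was chosen with earlier results of these arrays known.

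The neuronal label was checked against 9 marker genes. Th (tyrosine hydroxylase), Nes (nestin), Slc18a2, Tubb3 and Nr4a2 were measured, while Ddc, Slc6a3 (the dopamine transporter), Map2 and Snap25 were not well above background on any array. Markers of other cells were also looked for. The 8 fibroblast markers included 4 measured ones, Prrx1, Pdgfrb, Pdgfra and Thy1, while Dcn, Lum, Fap and Twist1 were well above background on no array. The 6 glial markers had no member past the detection filter, and Pecam1, Tek and Kdr of the 4 endothelial markers were well above background on no array.

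Most collagen genes gave no usable signal. On the probe that stood for each of the 39 chains, 21 chains were not well above background on any array, 5 were so on 1 to 4 arrays, and 13 passed the filter of 5 or more arrays, 7 of these on all 12. Fibrillar chains made up the largest share of those measured, with 6 of 11 past the filter and 2 of 11 above background on no array. Among network chains 2 of 7 passed and 5 of 7 had that probe above background on no array, and among FACIT chains the counts were 2 of 8 and 6 of 8. These counts leave out chains named in the files by transcript. Of those, the network chains Col4a2 and Col4a5 also passed the filter, while Col6a1, Col12a1 and Col28a1 did not. Beaded-filament chains passed in 2 of 5 cases and multiplexins in 1 of 2. None of the 4 transmembrane collagens, the anchoring-fibril chain Col7a1 or Col26a1 passed.

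The chains whose chosen probe was well above background on no array were the fibrillar Col11a1 and Col24a1, the network chains Col4a3, Col4a4, Col4a6, Col8a2 and Col10a1, and the FACIT chains Col9a1, Col9a2, Col9a3, Col14a1, Col19a1 and Col22a1. The others were Col6a3, Col6a4 and Col6a5 of type VI, Col7a1, the transmembrane Col17a1, Col23a1 and Col25a1, and Col26a1. Of these, Col10a1 and Col4a6 each had another probe, named by transcript, that was well above background on 1 array, a WT array for Col10a1 and a KO array for Col4a6. Among the dim chains that passed, Col1a2 was missed on KO 4, KO 5, WT 6 and WT 7, and Col5a3 on KO 4 and KO 5. These 4 arrays shared slide 3 and its scan day, and had 42.3% to 44.9% of spots well above background.

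**Figure D1:**
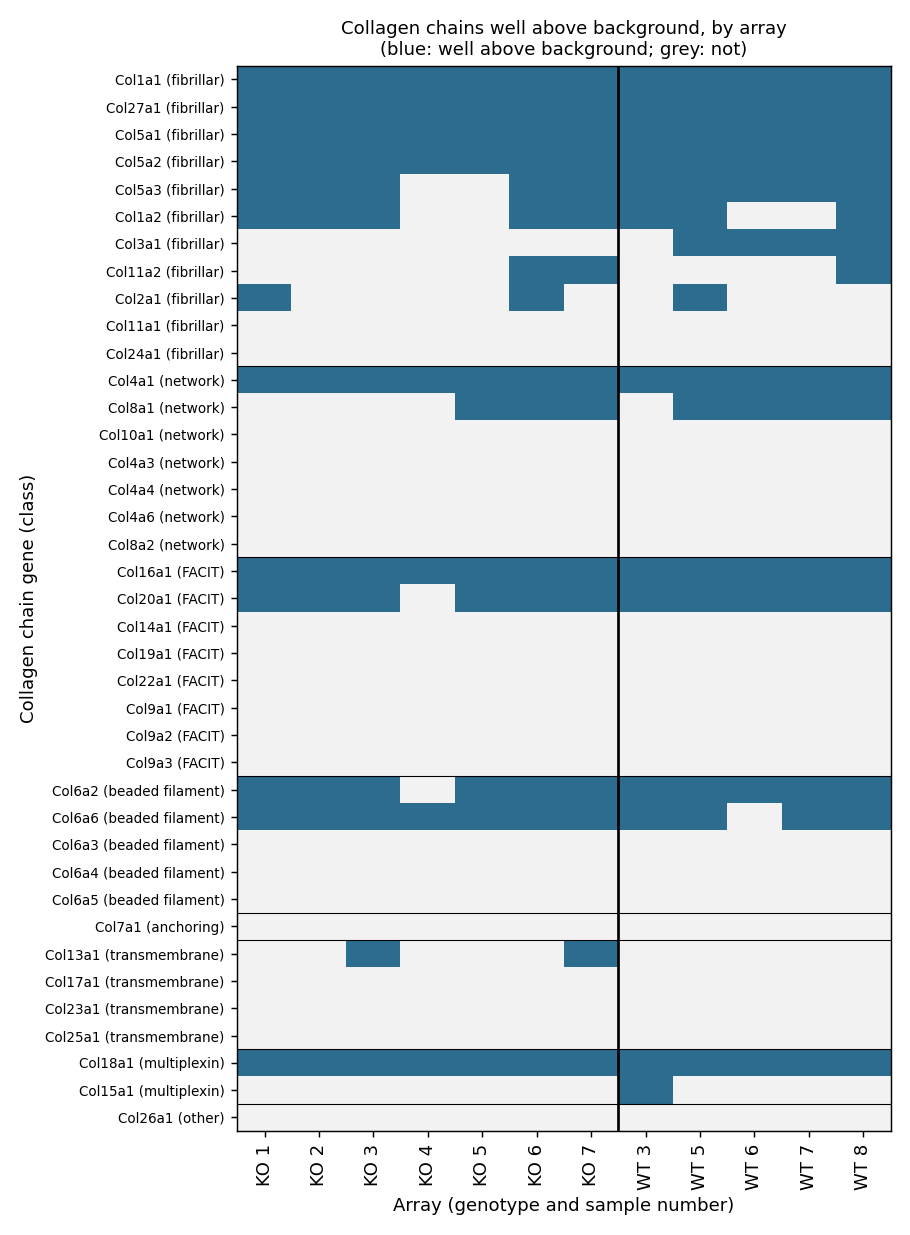
Grid of the 39 collagen chains (rows, grouped by class) by the 7 KO and 5 WT arrays (columns), blue where the chain was well above background on that array. Blue cells on 5 or more arrays mark 13 chains, 6 of them fibrillar, and Col8a1 is blue only in KO 5 to 7 and WT 5 to 8.

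The 1 chain that passed the test was Col16a1, a FACIT collagen, which was 1.71-fold lower in KO cells than in WT cells. No chain was called higher. Of all 14739 features tested, 1.09% were called, 0.699% as higher and 0.394% as lower, and a single call among 13 chains is too few to set against that share. The estimate was negative for 11 of the 13 chains and positive for 2, with a median of −0.32 against 0.040 over all features. With a block for the number set the median was −0.14 against 0.051, and Col8a1, Col18a1 and Col27a1 also turned positive. In numbers 5 to 8 alone it was −0.14 against 0.075, and Col8a1, Col20a1 and Col27a1 turned positive. Over all 12 arrays the median was −0.19 for the 6 fibrillar chains and −0.41 for the 2 network chains. The network median changed sign with the arrays used, at 0.17 with a block for the number set and 0.63 in numbers 5 to 8 alone, and it leans on Col8a1, which was not well above background on 5 arrays. At an unadjusted p below 0.05, 4 chains were lower and none higher, where 15.6% of all features passed, 6.24% as lower. The 7 KO and 5 WT values did not overlap for Col16a1 and Col6a2, 2 of 13 chains, against 2.73% of all features, 0.889% with KO below WT. In bulk samples such as these, fewer cells of a kind and less RNA per cell cannot be told apart.

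**Figure D2:**
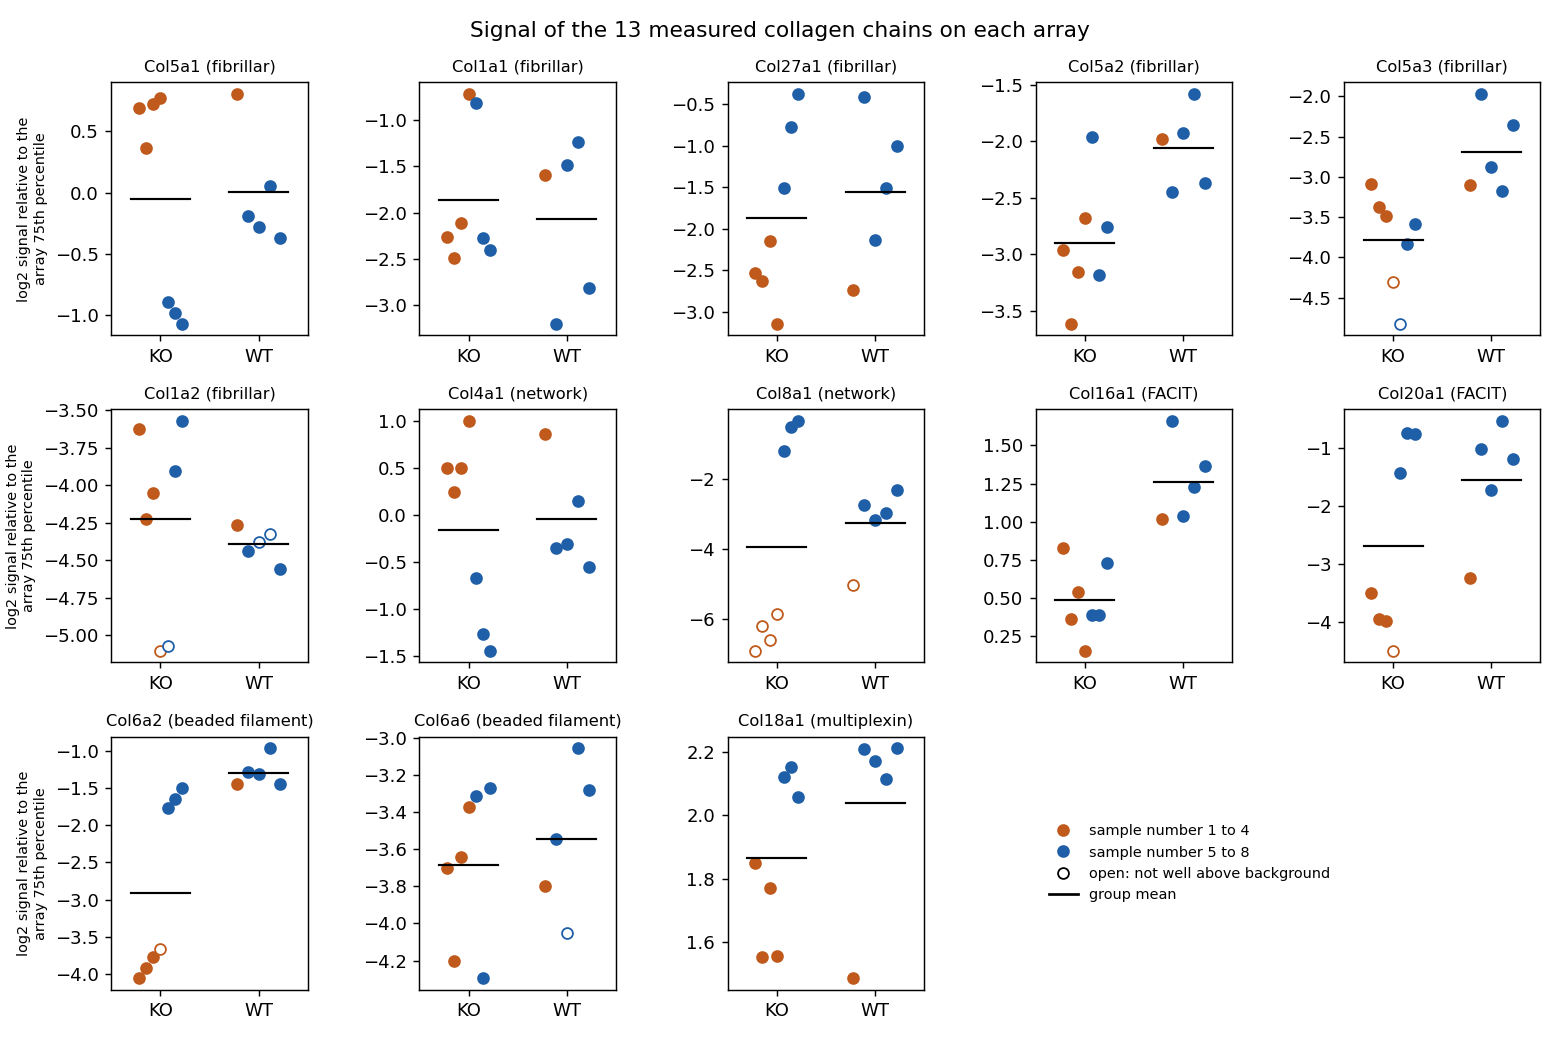
Log2 signal relative to the array's 75th percentile for the collagen chains past the filter, with KO arrays left of WT arrays and 1 point per array. Orange points are sample numbers 1 to 4, blue points 5 to 8, open points not well above background, and lines are group means. Col16a1 and Col6a2 are the chains whose KO points all lie under the WT points.

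Among fibrillar chains, Col5a1 encodes the main chain of type V collagen, a minor component that starts fibril formation. Its level was 0.69, 0.37, 0.73 and 0.77 in KO 1 to 4 and −0.89, −0.99 and −1.07 in KO 5 to 7. In WT cells it was 0.81 in WT 3, and −0.20, −0.28, 0.05 and −0.37 in WT 5 to 8. KO 1 to 4 thus lay above WT 5 to 8 but under WT 3, the only WT array of their number set. Within numbers 5 to 8 all 3 KO arrays were below all 4 WT arrays. Over the 12 arrays the log2 difference was −0.06 ± 0.39 SE (adjusted p = 0.963). With the number set as a block it was −0.59 (adjusted p = 0.0385; 5.08% of all features were called, 3.03% as higher and 2.06% as lower), and in numbers 5 to 8 alone −0.79, or 1.72-fold (adjusted p = 0.0320; 4.61% called, 2.34% as lower). A second Col5a1 probe gave the same order of means, with −1.33 in KO 1 to 4 and −2.40 in KO 5 to 7, against −0.91 in WT 3 and −1.79 in WT 5 to 8.

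Col5a2 and Col5a3 encode the other chains of type V collagen. Col5a2 was at −2.96, −3.62, −3.15, −2.68, −1.96, −3.18 and −2.76 in KO 1 to 7, and at −1.98, −2.45, −1.93, −1.58 and −2.37 in the WT arrays. Its values overlapped only through KO 5, and the difference of −0.84 ± 0.25 SE did not pass (adjusted p = 0.120). A second Col5a2 probe lay between −4.80 and −4.30 in KO cells and between −3.89 and −2.33 in WT cells, without overlap. It was well above background on 4 KO arrays and 5 WT arrays, and its target sequence partly overlaps that of the first probe. The mean of both probes passed the test (−1.08, adjusted p = 0.0125, with 1.13% of all features called). Of the 12 fits with 1 array left out, the first probe passed only in that without KO 5 (−1.0, adjusted p = 0.0492, with 0.733% called). That probe did not pass with the number set as a block (−0.73, adjusted p = 0.132) or in numbers 5 to 8 alone (−0.55, adjusted p = 0.391). With slide as a block it also missed (−0.71, adjusted p = 0.0609). Col5a3 was at −3.09, −3.37, −3.48, −4.31, −4.82, −3.83 and −3.58 in KO 1 to 7, and at −3.11, −1.97, −2.88, −3.17 and −2.35 in the WT arrays. It was well above background on 5 KO arrays and all 5 WT arrays. The 2 groups touched only at KO 1, and the difference of −1.09 ± 0.30 SE missed the threshold (adjusted p = 0.0997). With slide as a block Col5a3 was called at −1.28 (adjusted p = 0.0114), where 2.74% of all features were called, 1.02% as lower. It was not called with the number set as a block (−1.16, adjusted p = 0.0641) or in numbers 5 to 8 alone (−1.48, adjusted p = 0.0655). A replicate block gave −1.15 (adjusted p = 0.409).

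Type I collagen, the most abundant fibrillar collagen of connective tissue, joins chains from Col1a1 and Col1a2. Col1a1 was at −2.26, −2.49, −2.12, −0.72, −0.82, −2.28 and −2.40 in KO 1 to 7, and at −1.60, −3.20, −1.49, −1.24 and −2.82 in the WT arrays. The 4 highest values belonged to KO 4, KO 5, WT 6 and WT 7, which shared slide 3. The difference was 0.20 ± 0.42 SE (adjusted p = 0.867), and 0.42 with slide as a block (adjusted p = 0.357). A second Col1a1 probe gave 0.74 (exact permutation p = 0.0619, two-sided) and was not highest on slide 3, so the probes of this gene did not order the arrays alike. Col1a2 was near the detection limit, with a range of −5.10 to −3.57 in KO cells and of −4.56 to −4.26 in WT cells, and its difference was 0.17 (adjusted p = 0.807).

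Col27a1, a fibrillar chain known from cartilage, was at −2.54, −2.63, −2.15 and −3.15 in KO 1 to 4 and at −1.51, −0.78 and −0.38 in KO 5 to 7. WT 3 had −2.73, and WT 5 to 8 had −0.41, −2.13, −1.51 and −1.0. Its level followed the sample number, opposite in direction to Col5a1, though among WT arrays this rests on WT 3 alone. The KO and WT arrays did not separate (−0.32, adjusted p = 0.809). A second Col27a1 probe, well above background on 3 KO and 3 WT arrays, gave −0.76 (exact permutation p = 0.331, two-sided). Its means were −5.68 in KO 1 to 4 and −2.88 in KO 5 to 7, against −4.78 in WT 3 and −3.45 in WT 5 to 8.

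Col3a1, the chain of type III collagen, stayed under the filter because it was well above background on 0 of 7 KO arrays and on 4 of 5 WT arrays. Its WT values were −6.52 in WT 3 and −2.74, −3.55, −3.13 and −3.01 in WT 5 to 8, while the KO arrays lay between −6.03 and −4.79. KO cells therefore have only a bound. It sets the WT mean against the KO arrays' own signal or the lowest signal called well above background on that array, whichever is higher. On that measure Col3a1 was 2.54-fold lower in KO cells. The WT mean includes WT 3, which was itself not well above background, so the value is not a strict limit. The two-sided exact permutation p of 0.0290 was taken on the signals without that bound. Neither the KO arrays nor WT 3 were well above background, so this p partly orders background signal and gives the bound no support. WT 3 was lower than every KO array, so the WT mean was above the KO arrays only through WT 5 to 8. Without the filter on dim probes the fitted difference was −1.59 (adjusted p = 0.590). Of the other dim fibrillar chains, Col2a1 was well above background on KO 1, KO 6 and WT 5, and Col11a2 on KO 6, KO 7 and WT 8.

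Type IV collagen is the network collagen of basement membranes, and its most widespread form joins chains from Col4a1 and Col4a2. Col4a1 was at 0.51, 0.25, 0.50 and 1.0 in KO 1 to 4 and at −0.67, −1.27 and −1.45 in KO 5 to 7. WT 3 had 0.87, and WT 5 to 8 had −0.35, −0.31, 0.15 and −0.55. This was the order seen for Col5a1, with the second number set lower in both genotypes and lowest in KO cells. The difference over 12 arrays was −0.12 (adjusted p = 0.928). It was −0.69 with the number set as a block (adjusted p = 0.0771) and −0.86 in numbers 5 to 8 alone (adjusted p = 0.0887), neither past the threshold.

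The type IV genes lie as head-to-head pairs, and the stretch between the starts of Col4a2 and Col4a1 is shown because both genes are transcribed outward from it and both were measured here. In the RefSeq annotation of rat build GRCr8 it spans 76 bases at chr16:84885521-84885596, and is printed on the plus strand with the GGGCGG box, found on the reverse strand, in capitals.
Col4a2-Col4a1: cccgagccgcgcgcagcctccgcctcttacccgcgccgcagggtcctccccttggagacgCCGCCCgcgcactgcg
Its GC content was 78.9%, against a median of 53.9% over 33469 RefSeq promoter windows of the same length. Both strands were searched for GGGCGG, present in 18.1% of all such windows, and for CCAAT, which is in 13% of them and was not found here. The other pairs are farther apart, with 412 bases between Col4a4 and Col4a3 on chromosome 9 and 1414 bases between Col4a6 and Col4a5 on chromosome X.

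Like Col4a1, Col4a2 was higher in KO 1 to 4 than in KO 5 to 7, but unlike Col4a1 it was not high in WT 3. Its probe is named in the files by a transcript identifier and described as Col4a2, so it stood outside the 39 names. It was at −1.63, −2.45, −2.35 and −2.55 in KO 1 to 4 and at −4.11, −3.41 and −3.20 in KO 5 to 7, against −3.41 in WT 3 and −3.16, −3.74, −3.41 and −3.07 in WT 5 to 8. KO 1 to 4 thus stood above every other array, WT 3 included, whereas WT 3 was as high as KO 1 to 4 for Col4a1. The difference was 0.54 ± 0.35 SE (adjusted p = 0.472). Col4a5, a chain of the basement membrane of kidney and other tissues, also named by description, was at −2.18, −2.77, −2.34, −2.54, −2.89, −2.72 and −1.79 in KO 1 to 7 and at −1.26, −1.62, −1.79, −2.14 and −1.46 in the WT arrays. It did not pass over all 12 arrays (−0.81 ± 0.21 SE, adjusted p = 0.0786) or in numbers 5 to 8 alone (−0.72, adjusted p = 0.212). With the number set as a block it passed (−0.87, adjusted p = 0.0422), where 5.08% of all features were called, 2.06% as lower.

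Col8a1, the chain of a short network collagen of vessel walls, was detected by sample number. It was well above background only on KO 5 to 7, at −1.19, −0.50 and −0.34, and on WT 5 to 8, at −2.73, −3.18, −2.97 and −2.32. KO 1 to 4 lay between −6.91 and −5.85 and WT 3 at −5.04, where there is no signal to order. Within numbers 5 to 8 every KO array was above every WT array, and Col8a1 was called 4.35-fold higher (log2 difference 2.12, adjusted p = 0.00739; 2.27% of all features were called higher). Over all 12 arrays the estimate was −0.69 (adjusted p = 0.842). The chosen probes of the other 5 network chains were not well above background on any array.

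Col16a1, the called FACIT chain, is a minor collagen bound to the fibres or microfibrils of many tissues. Its probe starts at base 5027 of the transcript and lies at chr5:149126166-149126225 on the plus strand of build rn4 in the file's annotation. Its level was 0.83, 0.36, 0.54, 0.15, 0.39, 0.39 and 0.73 in KO 1 to 7, and 1.01, 1.66, 1.04, 1.23 and 1.36 in WT 3, 5, 6, 7 and 8. No KO array reached a WT array in either number set. Means were 0.48 ± 0.23 in KO cells (SD, n = 7) and 1.26 ± 0.26 in WT cells (SD, n = 5). The difference was −0.78 ± 0.16 SE, with a 95% interval of −1.12 to −0.44 (adjusted p = 0.0409), and the two-sided exact permutation p was 0.00126, the smallest this design allows. The value was −0.73 with the number set as a block (adjusted p = 0.0231) and −0.84 with a block for slide (adjusted p = 0.0200). On slides 1, 2 and 3 it was −0.63, −1.08 and −0.87.

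The call for Col16a1 lay near the threshold. Without any 1 of the 7 KO arrays, or without WT 5, 6, 7 or 8, the difference stayed between −0.84 and −0.68 while the adjusted p was between 0.0534 and 0.124, and without WT 3 it was 0.0188. With normexp background correction the difference was −0.68 (adjusted p = 0.106), and in numbers 5 to 8 alone −0.82 (adjusted p = 0.0504).

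Col20a1, the other measured FACIT chain, was at −3.49, −3.95, −3.98 and −4.50 in KO 1 to 4 and at −1.43, −0.74 and −0.76 in KO 5 to 7. WT 3 had −3.25, and WT 5 to 8 had −1.02, −1.72, −0.53 and −1.19. Its level again followed the sample number rather than the genotype (−1.15, adjusted p = 0.473, and 0.14 in numbers 5 to 8 alone). A probe described as Col20a1 but named by transcript did not show that step (0.45, adjusted p = 0.576). Another such probe did, with means of −6.77 in KO 1 to 4 and −3.99 in KO 5 to 7. It had −6.60 in WT 3 and a mean of −4.64 in WT 5 to 8. That probe was well above background on only 2 KO and 2 WT arrays, all in numbers 5 to 8. The FACIT chain Col12a1, also named by transcript, was well above background only in KO 5 to 7, at −2.81, −3.01 and −3.50 on its brightest probe.

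Type VI collagen forms beaded filaments around cells, and Col6a2 encodes one of its 3 core chains. Col6a2 was at −4.06, −3.92, −3.77 and −3.66 in KO 1 to 4 and at −1.77, −1.65 and −1.50 in KO 5 to 7, against −1.45 in WT 3 and −1.29, −1.32, −0.96 and −1.44 in WT 5 to 8. All 7 KO arrays were below all 5 WT arrays, by far more in numbers 1 to 4. The difference of −1.61 ± 0.48 SE, or 3.05-fold, did not pass across all features (adjusted p = 0.120, exact permutation p = 0.0114, two-sided). It was −2.40 in numbers 1 to 4, where WT 3 stands alone and is assumed to vary like the KO arrays (adjusted p = 0.0296; 0.353% of all features called, 0.319% as higher and 0.0339% as lower). In numbers 5 to 8 it was −0.39 (adjusted p = 0.236). A second Col6a2 probe was not well above background on any array. Col6a6, a chain of a related type VI assembly, differed by −0.14 (adjusted p = 0.818), and a probe described as Col6a1, another core chain, was not well above background on any array.

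Col18a1, whose protein is a basement membrane proteoglycan and the source of endostatin, lay between 1.55 and 2.15 in KO cells and between 1.49 and 2.21 in WT cells. The difference was −0.17, with a 95% interval of −0.54 to 0.19 (adjusted p = 0.664), and the 2 groups overlapped throughout. KO 1 to 4 (1.55 to 1.85) and WT 3 (1.49) lay under every array of numbers 5 to 8 (2.06 to 2.21). The other multiplexin, Col15a1, was well above background on WT 3 only, and the transmembrane chain Col13a1 on KO 3 and KO 7.

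**Figure D3:**
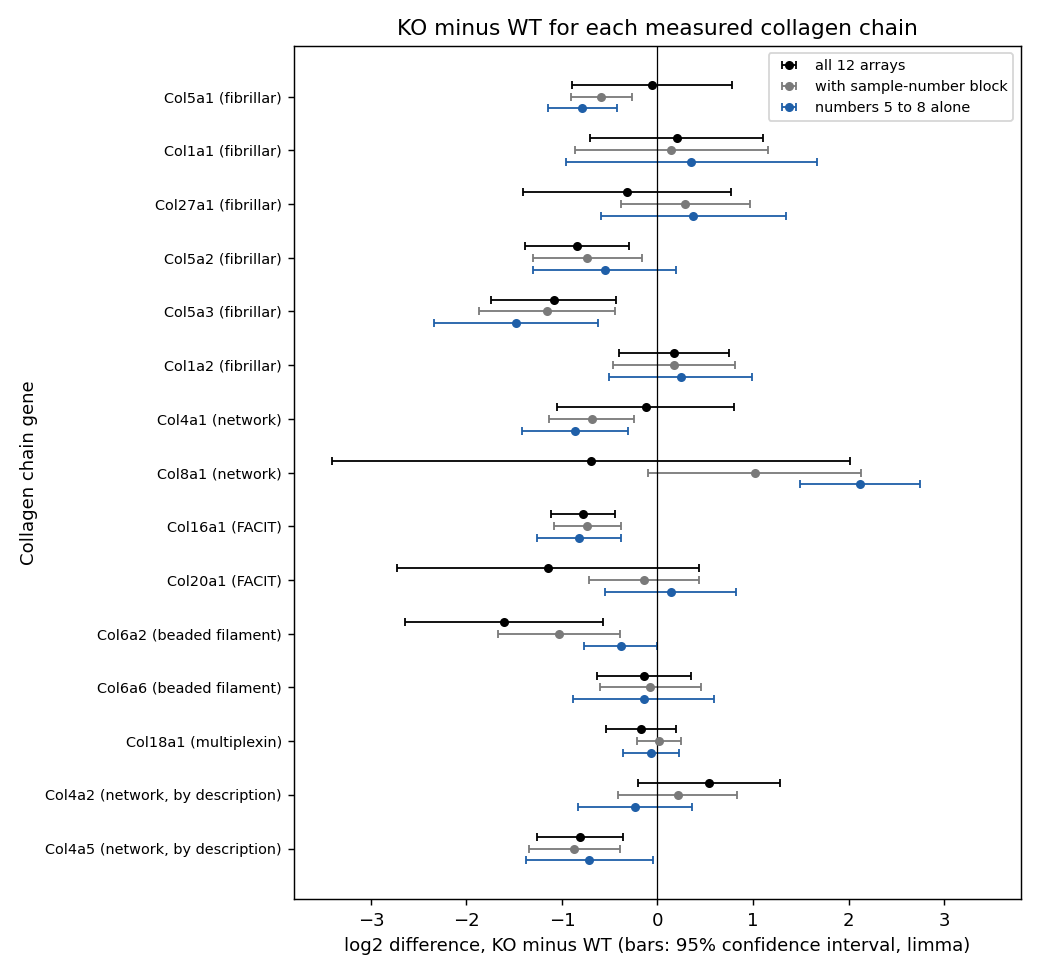
Log2 difference, KO minus WT, with 95% limma confidence intervals for the 13 collagen chains past the filter and for Col4a2 and Col4a5, over all 12 arrays (black), with the number set as a block (grey) and in numbers 5 to 8 alone (blue). Col16a1 keeps almost 1 value in all 3, while Col8a1 and Col6a2 move with the choice of arrays.

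The KO difference itself depended on the number set for 2 chains. The interaction, the KO difference in numbers 1 to 4 minus that in 5 to 8, was −3.47 for Col8a1 (adjusted p = 0.00872) and −2.01 for Col6a2 (adjusted p = 0.00445), and 1.94% of 14737 features passed that test. It rests on WT 3 as the only WT array of the first set, and for Col8a1 on signal not above background in that set. The number set and whatever else sets WT 3 apart cannot be told apart here.

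Genes that make collagen outside the chains themselves showed no call over the 12 arrays. Of the 19 folding and modification genes on the array, such as prolyl and lysyl hydroxylases and the chaperones of the secretory pathway, 16 were tested and 0 were called. They had a median of 0.18, with 14 estimates positive. Plod1, a lysyl hydroxylase, differed by 0.40 (adjusted p = 0.184), and Sec23a, a coat protein for export from the endoplasmic reticulum, by 0.33 (adjusted p = 0.219), the 2 smallest p-values of the list. The processing and cross-linking enzymes had 8 of 12 tested, 0 called and a median of −0.15. Loxl3 and Loxl4, lysyl oxidases that link fibres, had estimates of 0.68 (adjusted p = 0.0932) and −0.70 (adjusted p = 0.140).

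Collagen receptors had 6 of 11 genes tested, 0 called and a median of −0.22. Itgb1, the beta-1 integrin, differed by −0.43 (adjusted p = 0.101), and Mrc2, which takes up collagen for breakdown, by −0.18 (adjusted p = 0.50). Degradation enzymes had 5 of 14 tested, 0 called and a median of −0.062, with −0.34 for Ctsb (adjusted p = 0.392) and −0.18 for Ctsl (adjusted p = 0.672), both lysosomal cathepsins. Regulators of collagen transcription had 14 of 15 tested, 0 called and a median of −0.20, with 13 estimates negative. Among them, Smad7, an inhibitor of TGF-beta signalling, was at −0.44 (adjusted p = 0.255) and Ccn2, a target of that pathway, at −1.31 (adjusted p = 0.302). Matrix partners of collagen fibres and basement membranes had 7 of 19 tested, 0 called and a median of −0.29, with −0.64 for the proteoglycan Bgn (adjusted p = 0.103) and −0.47 for the laminin chain Lamc1 (adjusted p = 0.120).

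With the number set as a block, 5.08% of all features were called, 2.06% as lower. The 6 lists had 16, 8, 6, 5, 14 and 7 genes tested, and 3 calls among them are too few to set against that share. These 3 genes were each lower in KO cells. They were Adamts14, which cleaves the ends of procollagen (−0.78, adjusted p = 0.0297), the receptor Adgrg1 (−0.50, adjusted p = 0.0193) and Smad7 (−0.59, adjusted p = 0.0340). With slide as a block Loxl4 was called lower (−0.77, adjusted p = 0.0454), where 2.74% of all features were called, 1.02% as lower. In numbers 5 to 8 alone, 4.61% of all features were called, 2.34% as lower. The list genes called lower there included Loxl4 (−1.17), Adamts14 (−1.10) and Pxdn (−0.70), the enzyme that cross-links type IV collagen.

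**Figure D4:**
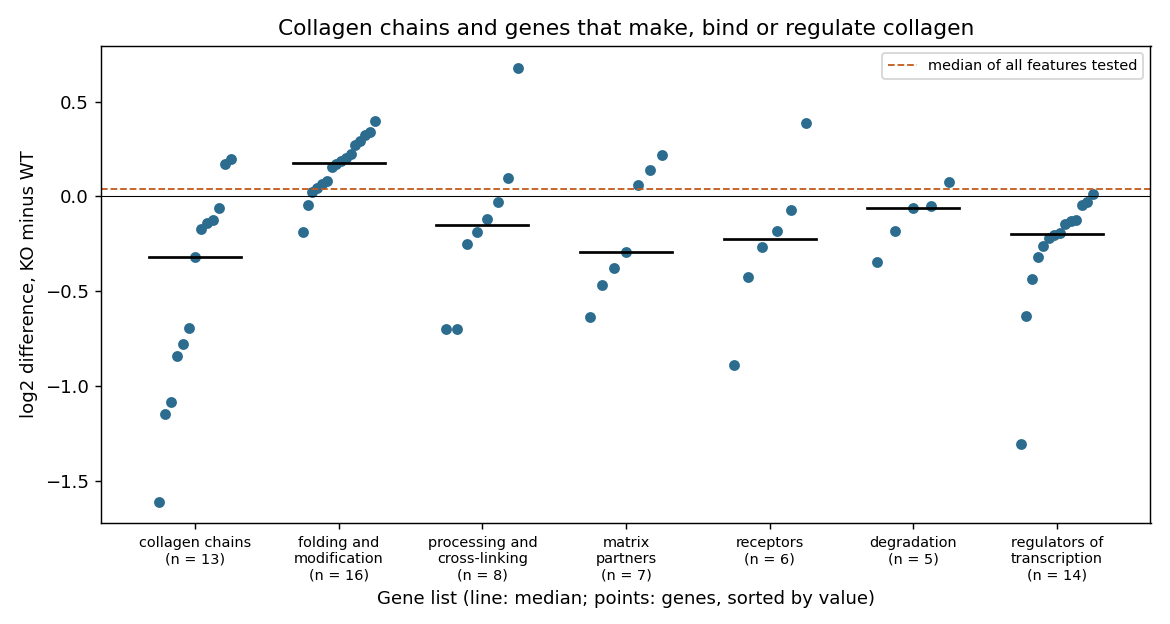
Log2 difference, KO minus WT, of each tested gene in the collagen chains and in 6 lists of collagen-related genes, 1 point per gene, sorted by value, with the list median as a line and the median of all tested features dashed. The folding list has its median at 0.18, the matrix partners at −0.29, and no list gene is called over the 12 arrays.

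Of the 8 fibroblast markers 4 were tested and 0 were called over the 12 arrays, with 3 estimates negative and 1 positive. Their summed linear signal, relative to the array's 75th percentile, was 0.952 to 1.48 in KO cells and 1.38 to 1.94 in WT cells, ranges that overlapped. With the number set as a block, Prrx1 (−0.69, adjusted p = 0.00757) and Pdgfrb (−0.62, adjusted p = 0.0316) were called lower in KO cells. Of all features, 5.08% were called, 2.06% as lower. The 4 mural markers summed to 0.280 to 0.652 in KO cells and 0.421 to 0.713 in WT cells, and the 9 neuronal markers to 0.698 to 1.40 in KO cells and 0.839 to 1.11 in WT cells. Of the neuronal markers 5 were tested, with 3 estimates negative and 2 positive, and 0 were called over the 12 arrays or with the number set as a block. In numbers 5 to 8 alone 1 fibroblast and 1 neuronal marker were called lower, where 2.34% of all features were called lower. The 6 glial markers summed to 0.0795 to 0.177 in KO cells and 0.0720 to 0.150 in WT cells, and the 4 endothelial markers to 0.0571 to 0.161 in KO cells and 0.0762 to 0.112 in WT cells. The part of these markers in the collagen differences was not tested.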

How the data were processed

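Total RNA of 12 N27 cultures was hybridised with Cy3 to Agilent arrays, per the labels' protocols. The authors' scanner files hold spot intensity from Agilent Feature Extraction (10.7 per the submitters' processing notes, 10.1.1.1 per the file headers) with flags. The deposited value table holds quantile-normalized log2 values, by their identical sorted columns, with a median of 3.06 and a Spearman correlation of at least 0.9986 with the scanner signal. That table was used as an alternative only.

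Spots with the flag for non-uniformity or for deviating from their duplicates were dropped, the remaining spots of a probe were averaged, and log2 processed signal was set against each array's 75th percentile. Names came from RefSeq by accession for 21109 probes, by symbol for 6684 and by synonym for 424, and 17381 kept the file's name. A feature needed its probe well above background on 5 or more of 12 arrays, which left 14739 features. Whether a probe was so on an array was set by the mean of that flag over its remaining spots. Group differences were tested by lmFit and eBayes of limma (version 3.58.1, under R 4.3.3) across all features with Benjamini-Hochberg adjustment at 0.05, and single values by an exact permutation test. The procedure was tested on simulated data. Alternatives covered background correction, normalization, filter, probe choice, slide, scan day, sample-number set and each array left out. Named list genes were those called, or else the 2 with the smallest p. The collagen chains, gene lists, markers and number set were chosen with earlier results of these data known. Coordinates of probes are those of the file (rn4). The result for 1 listed gene is not reported here.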

Additional observations from a re-analysis of the deposited data

Results flagged for a closer look

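Col18a1 in WT 3 had a log2 signal of 1.49 relative to the array's 75th percentile, while the nearest other WT array had 2.11. The gap was 0.865 of the range of the 5 WT arrays, past Dixon's limit for 5 samples, a limit that chance passes in about 1 of 20 groups.

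The KO difference in sample numbers 1 to 4 minus that in numbers 5 to 8 was −2.01 for Col6a2 (adjusted p = 0.00445) and −3.47 for Col8a1 (adjusted p = 0.00872). Both values rest on WT 3 as the only WT array with a number under 5.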

How the results depend on the processing

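Of 14739 features, 103 were higher and 58 lower in KO cells. The counts of higher and lower features were 16 and 9 with normexp correction, 181 and 108 for features above background on all 12 arrays, 253 and 151 with slide as a block, and 231 and 139 with scan day as a block. They were 446 and 303 with a block for the number set, 334 and 345 in numbers 5 to 8 alone, and 47 and 5 in numbers 1 to 4 alone. Higher features numbered 56 with quantile normalization and 54 with the deposited values. With no filter both counts were 0 in limma (1129 and 852 at unadjusted p below 0.05). Within slides 1 and 3 both were also 0 (986 and 768, and 428 and 355, at unadjusted p), while slide 2, with WT 5 as its lone WT array, gave 1061 and 923. Leaving out 1 array gave 9 to 383 higher and 3 to 268 lower.

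Lower collagen chains numbered 0 with normexp, no filter, and within slides 1 and 3, 2 with the slide, scan day or number block or the mean of probes, 6 within slide 2 and 0 to 1 with 1 array left out. Higher chains numbered 1 in numbers 5 to 8 alone (Col8a1) and 1 within slide 2 (Col1a1). The network median was 0.87 within slide 1, −1.54 within slide 2, 0.63 in numbers 5 to 8 alone, 0.17 with the number block and 0.25 with the replicate block, and the fibrillar median stayed between −0.54 and −0.059 in all 27 settings.

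Estimates that changed sign were, with normexp, Col5a1 (0.0028), Col8a1 (0.068) and Col1a2 (−0.028). Within slide 1 they were Col8a1 (3.25), Col18a1 (0.26), Col27a1 (1.29), Col1a1 (−0.13) and Col20a1 (1.47), within slide 2 Col5a1 (0.79) and Col4a1 (0.77), and within slide 3 Col5a1 (0.054), Col1a2 (−0.73), Col4a1 (0.25) and Col6a6 (0.21). With the number block they were Col8a1 (1.02), Col18a1 (0.017) and Col27a1 (0.29). In numbers 5 to 8 alone they were Col8a1 (2.12), Col27a1 (0.37) and Col20a1 (0.14), and in numbers 1 to 4 alone Col18a1 (0.20), Col27a1 (0.12), Col1a1 (−0.30) and Col6a6 (0.070). With 1 array left out, Col5a1 ranged from −0.20 to 0.14, Col4a1 from −0.32 to 0.10 and Col1a1 from −0.083 to 0.41. The cause was not tested.

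The sample numbers shared by both genotypes (3, 5, 6 and 7) did not pair the arrays, as correlations of deviations were 0.46, −0.11, 0.073 and 0.050. With a replicate block limma called 0 higher and 0 lower features (921 and 614 at unadjusted p) and 0 of 13 collagen chains, while 6 chains were lower at unadjusted p. Under that block Col8a1 (1.32), Col18a1 (0.030), Col27a1 (0.49) and Col1a1 (−0.021) changed sign. Calls among dim chains are limited by signal over background, whose lowest passing level ranged from −6.52 to −4.11 between arrays.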
